A study of Mus musculus with 16 samples.

Results

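Neurog1, Nhlh1, Nhlh2, Insm1, Sox4, Sox11 and Kit are genes of dividing precursors and young neurons in the olfactory epithelium. They were chosen by symbol, each has 1 probe set, and they are 7 of the 19505 genes measured. In adult mice, olfactory sensory neurons are replaced throughout life from globose basal cells, dividing progenitors near the base of the epithelium. Proneural transcription factors of the basic helix-loop-helix (bHLH) family and their partners act while a progenitor leaves the cell cycle, and the resulting immature neuron later switches on its odorant receptor and the signalling proteins of a mature neuron. Neurog1 and Insm1 act in the progenitors and immediate neuronal precursors, Nhlh1, Nhlh2, Sox4 and Sox11 in precursors and differentiating neurons, and Kit encodes a surface receptor of globose basal cells.

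The mice carried S100a5-tauGFP, a reporter of S100a5, a calcium-binding protein gene whose level in olfactory sensory neurons follows their activity. For 40 h, 24 mice of both sexes, 7 to 12 weeks old, were kept singly under clean air, and from hour 26 they were given pulses of octanol, an aliphatic alcohol odorant, or of filtered air as vehicle. Their olfactory mucosa was dissociated and sorted by fluorescence into GFP+ and GFP- cells, and RNA of each fraction from 3 pooled mice was hybridised to 1 Clariom S array. The 4 groups, all carrying the reporter, were GFP+ cells after octanol, GFP- cells after octanol, GFP+ cells after vehicle and GFP- cells after vehicle, with 4 arrays each. Both fractions are mixtures sorted on the reporter alone, so a level is an average over all cells of a pool.

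Values are log2 signals as deposited, where 1 unit is a doubling, and a difference is GFP+ minus GFP- or octanol minus vehicle. A probe set was taken as above background at 6.32 log2, the 95th percentile of 321 vomeronasal receptor genes, most of which belong to another sensory organ. The 5222 negative control probe sets read higher, with a median of 6.60 log2 and a 95th percentile of 10.41, a choice that matters here. Under that 95th percentile lay the GFP+ arrays of all 7 genes, the GFP- arrays of Neurog1, Insm1, Sox4 and Kit, and 2 of the 4 octanol GFP- arrays of both Nhlh1 and Nhlh2, so each fold given here holds for the lower level. Both fractions held mature neurons: Omp, the olfactory marker protein gene, averaged 18.22 log2 in GFP+ and 18.10 in GFP- cells after octanol, against 18.18 in GFP+ and 18.11 in GFP- cells after vehicle. Of 5 genes raised by activity in these neurons all 5 were higher in GFP+ cells after either exposure, S100a5 by 0.86 log2 after octanol and 0.82 after vehicle. Array medians ran from 7.42 to 7.70 log2, no arrays were identical, and arrays of 1 group correlated at 0.990 to 0.995 over genes. Blood cell genes set the fractions apart: all 6 neutrophil genes and all 6 myeloid genes measured were lower in GFP+ cells after each exposure.

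All 7 genes had a lower mean in GFP+ than in GFP- cells, whichever exposure the mice had. The difference passed the test (adjusted p under 0.05, limma, Benjamini-Hochberg over 19505 genes) for 6 of 7 after octanol, all but Sox4, where 13.2% of all genes were lower and 16.7% higher, and for 7 of 7 after vehicle, where 13.5% were lower and 14.7% higher. The median difference over the 7 was -1.82 log2 after octanol and -2.06 after vehicle, beside 0.14 and 0.13 over all genes. The GFP+ array lay below the GFP- array of the same pool in all 4 octanol pools for 6 of 7 genes (16.4% of all genes did so) and in all 4 vehicle pools for 7 of 7 (17.6% of all genes). In bulk RNA of this kind, fewer cells of a type and less RNA per cell cannot be told apart. The 7 genes were chosen with earlier results of these data known, so these counts describe them and test nothing further. Where the fractions of a gene are said below not to overlap, the share of all genes doing so was not counted.

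How the arrays are scaled moves all genes, and the 7 were lower under each scaling tried. Of the genes called, 55.9% were higher in GFP+ cells after octanol and 52.2% after vehicle with the deposited values, 63.4% and 65.0% after quantile normalization, 84.9% and 86.5% with arrays centred on their median, and 5.78% and 12.6% with arrays centred on their odorant receptor genes. The median difference over all genes was 0.41 log2 after octanol and 0.46 after vehicle with centring on the median, and -0.36 and -0.17 with centring on receptors. Relative to the median of all genes, which centring cannot change, Nhlh1 differed by -4.31 log2 after octanol and -5.14 after vehicle, and by -4.28 and -5.04 after quantile normalization. Sox4 relative to that median differed by -0.66 log2 and -0.78, and by -0.54 and -0.61 after quantile normalization.

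**Figure D1:**
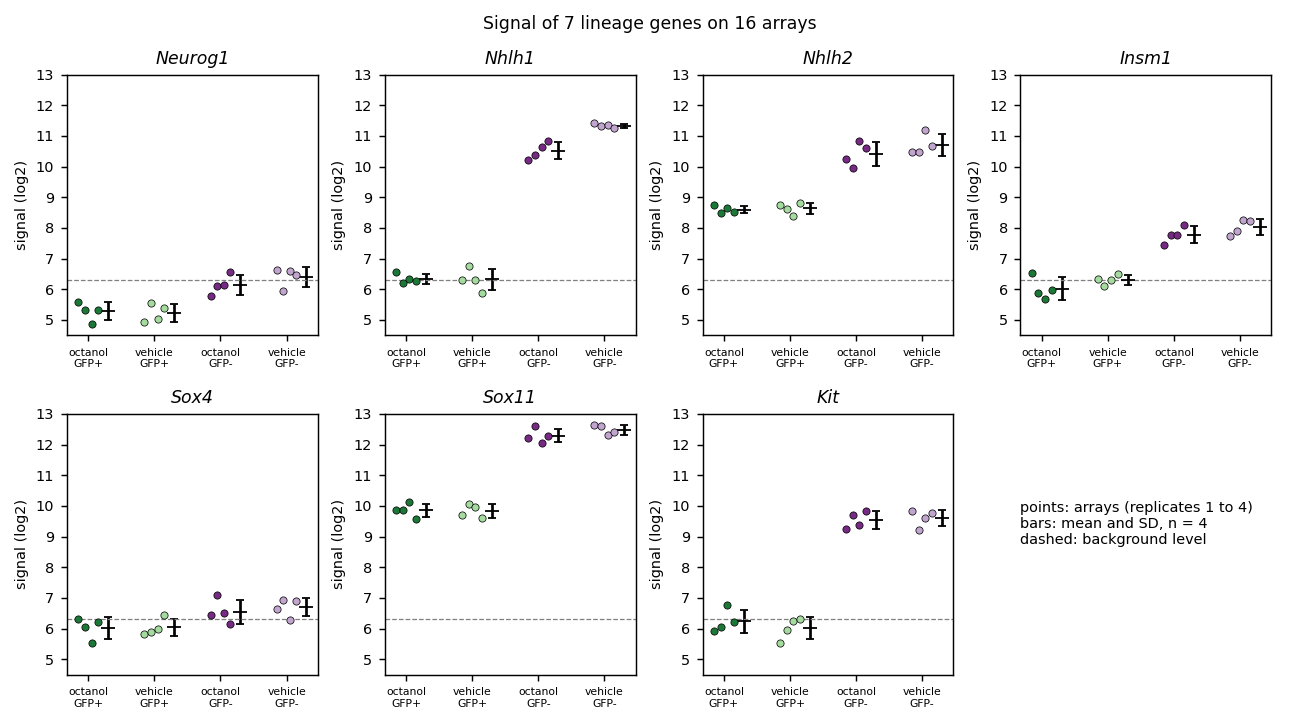
Log2 signal of the 7 genes on every array, for GFP+ cells after octanol and after vehicle and for GFP- cells after octanol and after vehicle (points, 4 arrays a group; bars, mean and SD; dashed line, background level of 6.32 log2). Nhlh1, Kit, Insm1, Nhlh2 and Sox11 separate the fractions with no overlap, while Sox4 overlaps between them and Neurog1 lies mostly under background. The share of all genes that separate in this way was not counted.

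Among the bHLH genes, Nhlh1, a factor of differentiating neurons also called Hen1 or Nscl1, had the largest difference of the 7. Its level was 6.56, 6.20, 6.33 and 6.27 log2 in GFP+ cells after octanol, against 10.20, 10.39, 10.64 and 10.84 in GFP- cells after octanol. After vehicle the level was 6.32, 6.76, 6.30 and 5.89 log2 in GFP+ cells, against 11.41, 11.31, 11.36 and 11.25 in GFP- cells. The fractions lay far apart, with all 8 GFP+ arrays near background and all 8 GFP- arrays well above it, and the 4 octanol GFP- arrays all lay under the 4 vehicle GFP- arrays. The difference was -4.17 log2 after octanol (SE 0.17, adjusted p = 1.4e-07, limma) and -5.01 after vehicle (SE 0.17, adjusted p = 5.73e-08, limma). With GFP+ arrays under background raised to it (2 of 4 were above it after each exposure), the GFP+ level of Nhlh1 was lower by at least 17.6-fold after octanol and by at least 29.9-fold after vehicle.

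The Nhlh1 promoter is shown because this gene differed most between the fractions. It is the RefSeq window of mouse build GRCm38.p6 at chr1:172057547-172057846, minus strand, 250 bases before to 50 after the start of the gene, with capitals marking E-boxes (CANNTG), the core that bHLH proteins can bind.
Nhlh1: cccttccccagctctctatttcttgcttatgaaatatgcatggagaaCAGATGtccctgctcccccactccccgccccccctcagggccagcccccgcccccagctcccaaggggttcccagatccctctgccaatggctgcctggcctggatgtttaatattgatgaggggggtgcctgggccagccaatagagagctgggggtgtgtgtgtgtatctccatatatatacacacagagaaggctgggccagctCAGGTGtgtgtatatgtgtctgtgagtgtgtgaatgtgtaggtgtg

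Nhlh2, the close paralog of Nhlh1, was above the background of 6.32 log2 on every array. Its level was 8.74, 8.48, 8.66 and 8.51 log2 in GFP+ cells after octanol, against 10.26, 9.96, 10.84 and 10.60 in GFP- cells after octanol. Vehicle arrays gave 8.74, 8.63, 8.40 and 8.80 log2 in GFP+ cells, against 10.47, 10.47, 11.21 and 10.68 in GFP- cells. All GFP+ arrays lay under all GFP- arrays, and the exposures overlapped within each fraction. Nhlh2 was 3.53-fold lower in GFP+ cells after octanol (difference -1.82 log2, SE 0.19, adjusted p = 6.15e-05, limma) and 4.18-fold lower after vehicle (-2.06 log2, SE 0.19, adjusted p = 2.52e-05, limma). The Nhlh2 window, shown beside that of its paralog, is chr3:102009895-102010194, plus strand, of the same RefSeq build, with E-boxes in capitals.
Nhlh2: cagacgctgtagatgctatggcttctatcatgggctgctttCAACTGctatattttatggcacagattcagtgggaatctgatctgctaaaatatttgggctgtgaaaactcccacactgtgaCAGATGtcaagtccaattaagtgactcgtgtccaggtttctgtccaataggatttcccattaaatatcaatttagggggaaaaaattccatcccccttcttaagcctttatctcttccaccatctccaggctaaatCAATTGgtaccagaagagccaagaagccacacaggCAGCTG

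Neurog1, the proneural factor of olfactory progenitors, gave a signal under background on most arrays. Its level was 5.59, 5.34, 4.88 and 5.32 log2 in GFP+ cells after octanol, against 5.78, 6.10, 6.13 and 6.57 in GFP- cells after octanol. After vehicle it was 4.94, 5.54, 5.02 and 5.38 log2 in GFP+ cells, against 6.64, 5.94, 6.58 and 6.45 in GFP- cells. No GFP+ array was above background, and of the GFP- arrays 1 of 4 was after octanol and 3 of 4 after vehicle. The fractions did not overlap after either exposure, and the fitted difference was -0.86 log2 after octanol (SE 0.23, adjusted p = 0.0194, limma) and -1.18 after vehicle (SE 0.23, adjusted p = 0.00382, limma). Since the GFP+ levels have only an upper bound, Neurog1 was at least 1.06-fold lower after vehicle and has no fold after octanol. The octanol call rested on single pools: without octanol replicate 3 the difference was -0.73 log2 (adjusted p = 0.0771, limma) and without octanol replicate 4 it was -0.73 (adjusted p = 0.0835).

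Insm1, a zinc finger factor that in mouse olfactory epithelium acts at the step from dividing to neuron-producing progenitor, was also low in GFP+ cells. Its level was 6.54, 5.88, 5.68 and 5.99 log2 in GFP+ cells after octanol, against 7.43, 7.78, 7.78 and 8.10 in GFP- cells after octanol. After vehicle the level was 6.34, 6.11, 6.29 and 6.49 log2 in GFP+ cells, against 7.73, 7.90, 8.26 and 8.23 in GFP- cells. The fractions did not overlap, and the exposures did within each fraction. The GFP+ level of Insm1 was lower by at least 2.64-fold after octanol (difference -1.75 log2, SE 0.19, adjusted p = 8.78e-05, limma) and by at least 3.17-fold after vehicle (-1.72 log2, SE 0.19, adjusted p = 9.95e-05), with 1 of 4 GFP+ arrays above background after octanol and 2 of 4 after vehicle.

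Sox11 and Sox4 belong to the SoxC factors and act in differentiating neurons. Sox11 had a level of 9.87, 9.86, 10.11 and 9.59 log2 in GFP+ cells after octanol, against 12.22, 12.59, 12.06 and 12.29 in GFP- cells after octanol. Vehicle arrays gave 9.69, 10.05, 9.97 and 9.60 log2 in GFP+ cells, against 12.63, 12.62, 12.29 and 12.41 in GFP- cells. Every array was above the background of 6.32 log2, and with that level the folds are measured. Sox11 was 5.39-fold lower in GFP+ cells after octanol (difference -2.43 log2, SE 0.15, adjusted p = 1.61e-06, limma) and 6.32-fold lower after vehicle (-2.66 log2, SE 0.15, adjusted p = 9.24e-07). No GFP+ array reached a GFP- array. The GFP+ arrays lay under the 95th percentile of the negative controls, and against that level these folds would be bounds. The Sox11 window, shown for the SoxC gene with the clear difference, is chr12:27342669-27342968, minus strand, of the same RefSeq build, with E-boxes in capitals.
Sox11: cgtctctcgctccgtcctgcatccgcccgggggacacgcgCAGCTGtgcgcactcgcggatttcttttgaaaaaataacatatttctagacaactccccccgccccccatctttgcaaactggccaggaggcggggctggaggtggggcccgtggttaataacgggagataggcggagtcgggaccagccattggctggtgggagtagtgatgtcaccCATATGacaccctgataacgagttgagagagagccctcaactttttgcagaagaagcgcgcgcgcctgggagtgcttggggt

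Sox4 gave the smallest difference of the 7 genes. Its level was 6.32, 6.04, 5.52 and 6.21 log2 in GFP+ cells after octanol, against 6.43, 7.10, 6.50 and 6.16 in GFP- cells after octanol. After vehicle it was 5.83, 5.88, 5.99 and 6.44 log2 in GFP+ cells, against 6.64, 6.92, 6.29 and 6.90 in GFP- cells. The fractions overlapped after both exposures, and the signal lay around background, with 1 of 4 GFP+ arrays and 3 of 4 GFP- arrays above it each time. Sox4 did not pass after octanol (-0.52 log2, SE 0.20, interval -0.98 to -0.07, adjusted p = 0.0791, limma) and passed after vehicle (-0.65 log2, SE 0.20, adjusted p = 0.038), there at least 1.27-fold lower. The vehicle call was lost without vehicle replicate 1 (adjusted p = 0.121, limma), 2 (0.137) or 4 (0.0701), with quantile normalization (-0.47 log2, adjusted p = 0.10) and with median centring (-0.32 log2, adjusted p = 0.166). The octanol difference passed without octanol replicate 4 (-0.72 log2, adjusted p = 0.0411, limma) and with arrays centred on their odorant receptor genes (-1.02 log2, adjusted p = 0.00128).

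Kit, the receptor tyrosine kinase for stem cell factor, had the second largest difference. Its level was 5.92, 6.05, 6.77 and 6.20 log2 in GFP+ cells after octanol, against 9.24, 9.69, 9.37 and 9.85 in GFP- cells after octanol. After vehicle the level was 5.52, 5.94, 6.24 and 6.32 log2 in GFP+ cells, against 9.83, 9.22, 9.61 and 9.75 in GFP- cells. The GFP+ arrays lay around or under background, 1 of 4 above it after each exposure, and far from all GFP- arrays. The GFP+ level of Kit was lower by at least 8.61-fold after octanol (difference -3.30 log2, SE 0.21, adjusted p = 1.75e-06, limma) and by at least 9.75-fold after vehicle (-3.60 log2, SE 0.21, adjusted p = 1.01e-06). The Kit window, shown for the receptor among the 7, is chr5:75574737-75575036, plus strand, of the same RefSeq build, with its E-box in capitals.
Kit: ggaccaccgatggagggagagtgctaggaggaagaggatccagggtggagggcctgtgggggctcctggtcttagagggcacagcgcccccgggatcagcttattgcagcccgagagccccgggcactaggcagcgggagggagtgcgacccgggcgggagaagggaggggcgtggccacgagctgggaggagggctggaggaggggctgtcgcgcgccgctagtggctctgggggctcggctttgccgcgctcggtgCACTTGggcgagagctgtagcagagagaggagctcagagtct

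Kit is also a receptor of mast cells and blood progenitors, and markers of both were read beside it. Of 10 mast cell genes 4 were lower in GFP+ cells after octanol and 4 after vehicle, none was higher, and 3 had a mean above background over the 16 arrays. The list's median difference was -0.03 log2 after octanol and 0.00 after vehicle. Their summed level ran from 9.42 to 9.53 log2 in GFP+ cells against 12.21 to 12.73 in GFP- cells after octanol, and from 9.23 to 9.38 in GFP+ cells against 11.69 to 12.29 in GFP- cells after vehicle. The histamine synthesis gene Hdc differed by -4.07 log2 after octanol and -3.67 after vehicle, the mast cell protease gene Cpa3 by -2.63 and -2.86, and the IgE receptor gene Ms4a2, with no GFP+ array above background, by -0.99 and -1.29. The summed level in GFP- cells was mostly that of Hdc, which averaged 12.14 log2 after octanol and 11.44 after vehicle. Cpa3, the next highest, averaged 9.34 and 9.18, so the sum mainly restates Hdc. The protease gene Tpsb2 was not lower, with differences of 0.51 log2 after octanol and 0.43 after vehicle that did not pass. The mast cell proteases Mcpt4, Cma1 and Tpsab1 averaged under background in all 4 groups.

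All 9 blood progenitor genes were lower in GFP+ cells after each exposure, with a median difference of -3.34 log2 after octanol and -3.54 after vehicle. Their summed level ran from 9.43 to 10.18 log2 in GFP+ cells against 13.95 to 15.51 in GFP- cells after octanol, and from 9.42 to 9.64 in GFP+ cells against 14.08 to 15.63 in GFP- cells after vehicle. Elane, a granule protease gene, differed by -6.04 log2 after octanol and -6.37 after vehicle, the peroxidase gene Mpo by -6.01 and -6.33, and the progenitor transcription factor gene Myb by -4.49 and -4.85. The part of mast cells and blood progenitors in the Kit difference was not tested.

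Genes of Kit signalling moved in part. Of 10 measured, 1 was higher (the phosphatase gene Ptpn11, 0.37 log2) and 4 were lower in GFP+ cells after octanol, and none was higher and 5 were lower after vehicle. The phosphatase gene Ptpn6, active mainly in blood cells, differed by -1.95 log2 after octanol and -1.90 after vehicle, the adaptor gene Sh2b3, with no GFP+ array above background, by -1.65 and -1.94, and the PI3-kinase subunit gene Pik3r1 by -1.42 and -1.43. Kitl, the gene of the Kit ligand, had octanol means of 6.50 log2 in GFP+ and 6.56 in GFP- cells, and vehicle means of 6.48 in GFP+ and 6.58 in GFP- cells. Neither difference in Kitl passed the test (adjusted p = 0.794 and 0.656, limma).

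**Figure D2:**
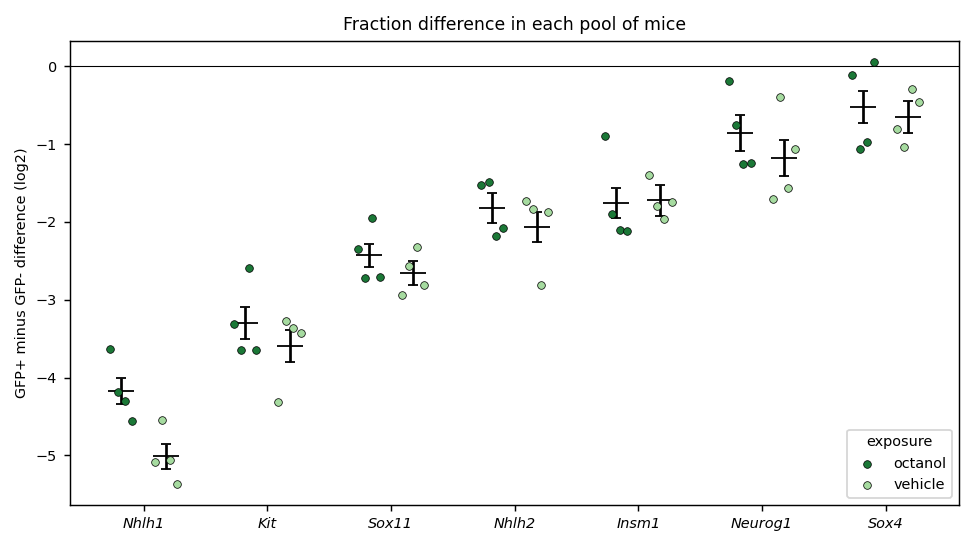
GFP+ minus GFP- difference in log2 signal for each of the 7 genes in each pool of 3 mice (points, 4 pools after octanol and 4 after vehicle; bars, fitted difference and SE). Nhlh1 lies lowest in every pool and Kit next, and 1 octanol pool of Sox4 lies above 0.

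The order of the differences was much the same from pool to pool. Nhlh1 had the lowest difference of the 7 in 8 of 8 pools and Kit the second lowest in 8 of 8, Sox11 came next in 6, and Sox4 had the smallest difference in 6. Within pools, the Nhlh1 difference ran from -4.56 to -3.64 log2 after octanol and from -5.36 to -4.54 after vehicle. Kit ran from -3.65 to -2.60 log2 after octanol and from -4.31 to -3.28 after vehicle, and Sox4 from -1.06 to 0.06 and from -1.04 to -0.30. These are differences within a probe set, and a gene whose GFP+ signal is at background can show only part of its difference.

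Genes of earlier and later stages of the lineage were read from lists beside the 7. Of 8 mitotic genes measured, 7 were lower in GFP+ cells after each exposure and none was higher, with a median difference of -1.90 log2 after octanol and -2.17 after vehicle. Mki67, a proliferation marker, differed by -5.02 log2 after octanol and -5.58 after vehicle, the mitotic kinase gene Cdk1 by -2.59 and -2.71 with its mean under background in both fractions, and the replication licensing gene Mcm2 by -1.94 and -2.48. Dividing blood progenitors carry these transcripts too, and their part was not tested.

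Of 16 immature neuron genes, 10 were lower after each exposure, 1 was higher after octanol (the adhesion molecule gene Ncam1, 0.31 log2) and none after vehicle. The median was -0.60 log2 after octanol and -0.82 after vehicle. The chemokine receptor gene Cxcr4, which many blood cells also carry, differed by -5.18 log2 after octanol and -5.73 after vehicle, and the G protein subunit gene Gng8 by -4.18 and -5.03. The actin-binding protein gene Ablim1 differed by -3.05 log2 and -4.14, with no GFP+ array above background. By contrast the cytoskeletal genes Dcx and Tubb3 did not pass in either exposure, with differences of 0.28 and 0.06 log2 after octanol and 0.24 and 0.06 after vehicle. Of 14 mature neuron genes none was lower, 6 were higher after octanol and 5 after vehicle, among them Ano2, the chloride channel gene of odor transduction, by 0.52 log2 after octanol and 0.50 after vehicle.

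**Figure D3:**
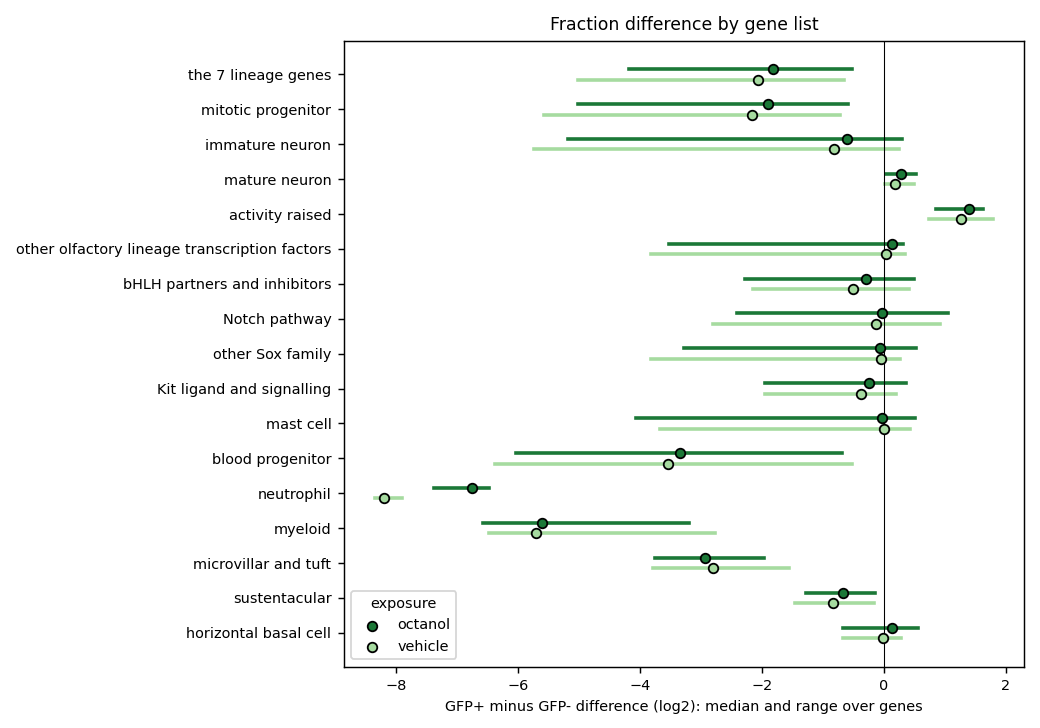
GFP+ minus GFP- difference in log2 signal for the 7 genes and for the lists set beside them (points, median over the genes of a list; lines, lowest to highest gene; darker, octanol; paler, vehicle). The 7 genes and the mitotic, blood progenitor, microvillar and tuft, sustentacular, neutrophil and myeloid lists lie to the left of 0 as a whole. The neutrophil and myeloid medians lie furthest left, and the other transcription factors centre near 0.

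Most of the other transcription factors of the lineage were not lower in GFP+ cells. Of 19 other olfactory lineage factors measured, the GFP+ level was higher for 2 (Ebf2 and Atf5) and lower for 6 after octanol, and none was higher and 6 were lower after vehicle, with medians of 0.14 and 0.03 log2, close to those of all genes. The Ebf1, Ebf2, Ebf3 and Ebf4 genes of maturing and mature neurons differed by 0.14 to 0.31 log2 after octanol and by 0.14 to 0.22 after vehicle, and Lhx2, which acts in odorant receptor choice, by 0.05 and -0.01. Among the 6 were Runx1, of young neurons and blood cells, with -3.53 log2 after octanol and -3.82 after vehicle, and the homeobox gene Otx2, with -2.74 and -3.42. Hes6, a bHLH gene of neuronal precursors, differed by -1.34 and -1.55 log2, and was near background in GFP+ cells. Neurog2 and Neurod2, relatives of Neurog1, averaged under background in all 4 groups.

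Among 11 bHLH partners and inhibitors, 1 was higher and 5 were lower in GFP+ cells after octanol and 1 was higher and 6 were lower after vehicle. The inhibitors of DNA binding divided: Id2 differed by -2.28 log2 after octanol and -2.15 after vehicle and Id1 by -1.81 and -1.75, while Id4 was higher by 0.50 and 0.42. Of the E proteins that pair with proneural factors, Tcf4 was lower by 0.55 log2 after octanol and 0.51 after vehicle, Tcf3 passed after vehicle alone (-0.51 log2, adjusted p = 0.00383, against -0.28, adjusted p = 0.0633, after octanol, limma), and Tcf12 passed in neither. The difference between those Tcf3 values was tested as a ratio, in which no gene passed.

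In the Notch pathway, through which neighbouring precursors hold back each other's differentiation, 2 of 15 genes were higher in GFP+ cells after each exposure, and 4 were lower after octanol and 3 after vehicle. The ligand genes Jag1 (1.05 log2 after octanol and 0.93 after vehicle) and Jag2 (0.66 and 0.48) were higher, and Lfng (-2.40 and -2.80), Mfng (-1.74 and -2.31), which encode sugar transferases that modify Notch, and Notch2 (-1.86 and -1.61) were lower. Lfng had no GFP+ array above background, and Mfng and Notch2 had some under it, so these fitted differences depend on the floor. Of the ligand genes Dll1, Dll3 and Dll4 none passed. Dll3 and Dll4 were under background on every array, so a difference in them could not be read. Dll1 was above it on 1 of 4 GFP+ and 3 of 4 GFP- arrays after each exposure. Of 14 other Sox genes 1 was higher and 4 were lower after octanol and none was higher and 4 were lower after vehicle, among them Sox9 (-3.28 log2 after octanol and -3.82 after vehicle) and Sox2 (-1.38 and -1.47), a gene of basal and sustentacular cells with some GFP+ arrays under background. Sox6 (-1.89 and -1.13) had no GFP+ array above background, and of its GFP- arrays 2 of 4 after octanol and 1 of 4 after vehicle were. Sox12, the other SoxC gene, differed the other way from Sox11, by 0.52 log2 after octanol (adjusted p = 0.00592, limma) and 0.26 after vehicle (adjusted p = 0.104).

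Other cells of the epithelium also differed between the fractions. All 6 microvillar and tuft cell genes were lower in GFP+ cells (median -2.93 log2 after octanol and -2.80 after vehicle), and 3 of 6 sustentacular genes were (-0.67 and -0.84). Of 5 horizontal basal cell genes none had a mean over the 16 arrays above background, 1 (Icam1, with GFP- means of 6.42 log2 after octanol and 6.32 after vehicle) was lower after each exposure and 1 was higher after octanol. Their part in the differences of the 7 genes was not tested.

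The second question of the design is whether octanol changed these levels within a fraction. In GFP- cells no gene passed among 19505 (0 in limma, smallest adjusted p = 0.982, 894 at an unadjusted p under 0.05), and in GFP+ cells none did (0 in limma, smallest adjusted p = 1.00, 727 at an unadjusted p under 0.05). With the deposited values, all 7 genes had a lower mean after octanol than after vehicle in GFP- cells. Their median difference was -0.26 log2, beside -0.02 over all genes, and the share of all genes with a lower mean was not counted. With arrays centred on their odorant receptor genes, Kit (0.09 log2) and Sox4 (0.01) were not lower, while the others of the 7 were. Neurog1 and Sox4 had GFP- arrays under background. In GFP+ cells the median difference was 0.02 log2, beside 0.01 over all genes, and 5 of the 7 had arrays under background there. None of these differences is a call.

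Nhlh1 in GFP- cells had the smallest p of all 19505 genes in that comparison. Its mean was 10.52 ± 0.28 log2 after octanol and 11.33 ± 0.07 after vehicle (SD, n = 4 each), and the highest octanol array, 10.84, lay under the lowest vehicle array, 11.25. The difference was -0.82 log2 (SE 0.15, 95% interval -1.14 to -0.49, unadjusted p = 0.000205, limma), but the adjusted p was 0.982. Nhlh1 was the 1 gene of the 7 whose octanol and vehicle arrays did not overlap in GFP- cells, where 1.51% of all genes were lower without overlap and 2.57% did not overlap in either direction. Leaving out each pool in turn gave -0.92 to -0.71 log2, and over all 15 settings tried the adjusted p ran from 0.726 to 1.00.

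In GFP+ cells Nhlh1 was at background after both exposures, with 6.34 ± 0.16 log2 after octanol and 6.32 ± 0.36 after vehicle (SD, n = 4 each), so no order can be read there. The GFP+ to GFP- difference of Nhlh1 was smaller after octanol than after vehicle, by 0.84 log2 (SE 0.24, 95% interval 0.32 to 1.37, unadjusted p = 0.00522, limma). It did not pass over all genes (adjusted p = 0.998), and neither did any other gene of the 7 or of the table (0 in limma, 886 at an unadjusted p under 0.05). The ratio and the comparisons within fractions use the same arrays and are not independent.

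For the other 6 genes in GFP- cells the octanol and vehicle arrays overlapped. The difference was -0.29 log2 for Nhlh2 (95% interval -0.78 to 0.19), -0.26 for Insm1 (-0.64 to 0.13) and -0.26 for Neurog1 (-0.70 to 0.18). It was -0.20 log2 for Sox11 (95% interval -0.52 to 0.12), -0.14 for Sox4 (-0.61 to 0.33) and -0.07 for Kit (-0.46 to 0.33). Each of these intervals holds changes of either sign, so no direction was established with 4 arrays a group. In GFP+ cells none of the 7 genes was without overlap (2.21% of all genes were), and the differences ran from -0.29 log2 for Insm1 (95% interval -0.69 to 0.12) to 0.23 for Kit (-0.27 to 0.73).

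**Figure D4:**
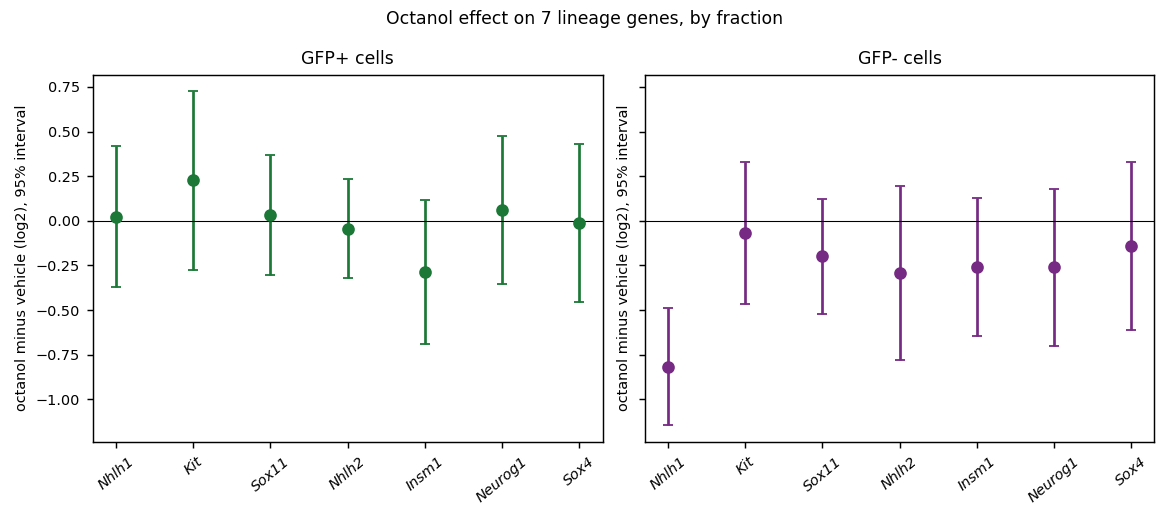
Octanol minus vehicle difference in log2 signal for the 7 genes in GFP+ cells (left) and GFP- cells (right), as fitted (points) with 95% intervals (bars) from 4 arrays a group. The Nhlh1 interval in GFP- cells, -1.14 to -0.49, excludes 0 before adjustment over all genes, and the other intervals shown include 0.

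Genes of neighbouring lineage stages were read in the same GFP- arrays. Of 16 immature neuron genes none passed, with a median octanol minus vehicle difference of -0.19 log2. Gng8 differed by -0.52 (unadjusted p = 0.0434, limma), Dpysl3 by -0.41 (0.0454) and Dpysl5 by -0.27 (0.0413), each with an adjusted p of 0.982, the last 2 named after their values were seen. Of 8 mitotic genes none passed, with a median of -0.10 log2, and Mki67 differed by -0.03. Among these 8, Aurkb differed by -0.46 log2 (unadjusted p = 0.0192, adjusted p = 0.982, limma), and was also named after its value was seen. Neutrophil genes had higher means after octanol, with none of 6 passing and median differences of 1.59 log2 in GFP+ and 0.48 in GFP- cells, and their summed level in GFP- cells ran from 19.22 to 19.80 log2 after octanol and from 18.95 to 19.55 after vehicle. The part of these shifts in the Nhlh1 difference was not tested.

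Placing the 4 groups in order, each of Nhlh2, Insm1, Sox11, Kit, Neurog1 and Sox4 had its highest mean in GFP- cells after vehicle and the next in GFP- cells after octanol, and these neighbours overlapped. Nhlh1 had the same order, and its 2 GFP- groups did not overlap. The GFP+ groups lay at the low end for all 7, and the octanol and vehicle arrays of GFP+ cells overlapped for all 7. For Nhlh1, Neurog1, Insm1, Sox4 and Kit, with GFP+ arrays under background, no order of the GFP+ groups can be read. Between the lower GFP- group and the higher GFP+ group the arrays overlapped for Sox4 and were apart for Nhlh1, Nhlh2, Insm1, Sox11 and Kit. The arrays of Neurog1 were apart too, but only 1 of its 4 octanol GFP- arrays was above background, so that gap cannot be read. How many of all genes were apart in this way was not counted.

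Over 16 arrays every pair of the 7 genes correlated positively, with Pearson r from 0.616 (Nhlh2 and Sox4) to 0.988 (Nhlh1 and Sox11) over 21 pairs. The arrays fall into 2 fractions, so these values mostly restate the fraction difference. After subtraction of group means, over the 8 GFP- arrays, 11 of 21 pairs were positive, from -0.89 for Nhlh2 and Sox11 to 0.89 for Neurog1 and Kit. These arrays share scaling and composition, and with 8 of them the values are a description only.

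The genes most like each member over 16 arrays were taken from 12884 genes above background. For Nhlh1 they were the RNA-binding protein gene Zfp36l2 (r = 0.990), Marcks (0.990), an actin-linked protein kinase C substrate, and the odorant receptor gene Olfr794 (0.989). Those of Sox11 were Calb2 (0.991), Stmn1 (0.990), a microtubule regulator of growing neurons, and Myb (0.986), and those of Kit were Mylip (0.991), Cxcr4 (0.991) and Ezr (0.990). Nhlh2 was nearest to Grasp (0.981), Olfr452 (0.980) and Alox5 (0.976), and Insm1 to Galns (0.978), Grasp (0.973) and Mocs1 (0.970). Neurog1 was nearest to the trace amine receptor gene Taar2 (0.940), Sel1l3 (0.938) and the cell cycle phosphatase gene Cdc25a (0.937), and Sox4 to Abcd2 (0.864), the centriole kinase gene Plk4 (0.857) and Cntn1 (0.832). Over residuals of the 8 GFP- arrays the nearest gene was a different one for each: Fam234a for Nhlh1 (r = 0.992), Heatr6 for Kit (0.969), Rundc3b for Sox11 (0.982), Fastk for Nhlh2 (0.980), Tas2r108 for Insm1 (0.983), Mybl1 for Neurog1 (0.984) and Dimt1 for Sox4 (0.972). Each of these is the highest r among 12884 genes, and over 8 arrays values this high can arise between unrelated genes. The values over 16 arrays mostly restate the fraction difference, so both sets are a description only.

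The promoter windows of 6 of the 7 genes could be searched, on both strands. All 6 held the general E-box CANNTG, which 72.3% of 32544 RefSeq windows of 300 bases hold. Nhlh2 had 4 such boxes, Nhlh1 and Sox11 had 2 each, and Kit, Sox4 and Neurog1 had 1 each, against a median of 1 over all windows. The form CAGCTG stood in Nhlh2, Sox11 and Sox4 (16.4% of all windows) and CAGATG in Nhlh1 and Nhlh2 (17.1%), both of which are also CANNTG boxes. The Sox motif AACAAAG stood in none of the 6 (5.85% of all windows) and the GC box GGGCGG in 4 (35.9%). A match is a run of letters and not a measured binding site.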

How the data were processed

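The values are log2 signals of 28846 probe sets on 16 Clariom S arrays, which the authors made and deposited, with Affymetrix Expression Console named per the submitters' processing notes. For it, version, settings and summarization are not given in the sources used. The RNA, 50 to 100 ng of total RNA per array, was made into biotinylated cRNA, per the labels. No array was left out, and the number of arrays limits the precision.

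Of the probe sets, 19572 carry exactly 1 gene symbol in the platform's annotation, and all of these matched the RefSeq gene table of GRCm38.p6 by Entrez number. Where several named a gene, the 1 with the highest mean over 16 arrays was used, which left 19505 genes. The other 9274 probe sets, 6640 of them controls, were not used. For the background of 6.32 log2, 321 vomeronasal receptor genes were averaged over arrays and the 95th percentile was taken. The 5222 negative control probe sets have a median of 6.60 log2 and a 95th percentile of 10.41.

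Tests were made with limma 3.58.1 (lmFit and eBayes, 2-sided) in R 4.3.3, adjusted with the Benjamini-Hochberg method over 19505 genes at 0.05. The fraction contrasts and the change of that ratio with octanol came from 1 fit of 16 arrays, blocked by pool, and octanol against vehicle within a fraction from 8 arrays without a block. The 24 mice make 8 pools of 3, so a GFP+ and a GFP- array with the same exposure and number were treated as 1 pool, an inference that the labels do not state per array. As a check of this pairing, residuals within a pool had correlations of 0.0779 to 0.222 (6 of 8 above 0.1), those of arrays sharing only a number at a mean of 0.129, and others at -0.0463, so the check does not establish it. The p-values for octanol against vehicle within a fraction measure the spread between pools. Those of the fraction contrasts and the ratio measure how the GFP+ to GFP- difference varies among pools, with 1 spread shared by both exposures.

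On simulated arrays with 100 genes changed by 1 log2 and 100 by 2, the fit within GFP- cells recovered 68% and 99% of them, that for the ratio 44% and 93%, and that for GFP+ against GFP- after octanol 77% and 98%. The simulated noise was normal and independent between genes and arrays, with no pool effects. Recovery also depends on how many genes change, so these shares can overstate or understate what the real comparisons could detect.

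The 7 genes and all lists were chosen with earlier results of these data known. The text names the 7 genes, up to 3 genes per list with the largest mean difference among those passing in both exposures, and the 3 genes most like each member; all other genes were named after their values were seen. A summed level is the log2 of the sum of linear signals over a list. A bound raises arrays under background to it. Likeness is Pearson's r, and promoters and motifs come from RefSeq windows 250 bases before to 50 after a gene's start. Alternatives were the block, the scaling, a filter on background, eBayes with trend and robust, the mean of probe sets, and leaving out each pool.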

Additional observations from a re-analysis of the deposited data

How the results depend on the processing

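The GFP+ against GFP- calls of Nhlh1, Kit, Sox11, Nhlh2 and Insm1 held in 15 of 15 settings after each exposure. Neurog1 kept its call in 12 of 14 settings after octanol and 14 of 14 after vehicle, being under the filter on background in the other, and Sox4 passed in 2 of 15 and 10 of 15. The count of genes called, 5826 after octanol and 5502 after vehicle, was 13429 and 14745 under median centring, 9276 and 5017 under centring on receptors, and 3969 to 5648 and 4024 to 5490 with 1 pool left out. The ratio gave 0 genes, and 1 (Olfr95, adjusted p = 0.0358, limma) with trend and robust. Dropping the pool block left the Nhlh1 ratio at 0.84 log2 (adjusted p = 1.00, limma), and adding a replicate block within GFP- cells left Nhlh1 at -0.82 log2 (adjusted p = 0.745). These blocks changed no call among the 7 genes. Uncalled values near 0 changed sign. With centring on receptors the ratio of Sox4 was -0.0673 log2, Nhlh1 and Sox11 within GFP+ cells -0.0194 and -0.0128, and Sox4 and Kit within GFP- cells 0.0126 and 0.0853, and after quantile normalization Nhlh1 within GFP+ cells was -0.0243. With 1 pool left out, the ratio ran from -0.0631 to 0.309 log2 for Sox4, from -0.316 to 0.0917 for Insm1 and from -0.0024 to 0.368 for Nhlh2. Within GFP+ cells it ran from -0.0402 to 0.196 for Neurog1, -0.119 to 0.173 for Nhlh1, -0.111 to 0.156 for Sox4, -0.0532 to 0.122 for Sox11 and -0.126 to 0.0079 for Nhlh2, and within GFP- cells from -0.196 to 0.0314 for Kit. The cause was not tested. Signals near background limit Neurog1, Sox4 and the GFP+ levels of Nhlh1, Kit and Insm1. The background level is itself a choice: the negative control probe sets have a median of 6.60 log2 and a 95th percentile of 10.41, above every GFP+ array of Nhlh2 and Sox11 too, so their folds are measured only against the lower level.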
